A study of Mus musculus with 10 samples.

Results

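Hyaluronan is a long unbranched sugar polymer of the matrix around connective-tissue cells. The 9 genes described here act on it: the synthases Has1, Has2 and Has3, the breakdown genes Cemip, Hyal1 and Hyal2, and the binding genes Tnfaip6, Cd44 and Vcan. They were chosen by function and by symbol, with earlier results of these data known, as 9 of the 22731 genes in the count table. All 9 passed the filter on low counts that left 16344 genes for testing. Mouse fibroblasts of the labelled genotype C57B6 were cultured alone (monoculture, 4 libraries), with wild-type group 2 innate lymphoid cells (ILC2s, 3 libraries, WT coculture), or with ILC2s labelled IL13KO, which lack the cytokine IL-13 (3 libraries, IL13KO coculture). The fibroblasts had been sorted as live cells positive for podoplanin and PDGFRα and negative for CD45, Epcam and CD31, the ILC2s as KLRG1-positive cells, and the series title names the pancreas. After culture the fibroblasts were re-sorted, and their RNA was sequenced in bulk. The re-sort is described as CD45-positive, although CD45 marks white blood cells and the fibroblasts had entered culture without it. Which animal or culture a library came from is not labelled, so p-values measure the spread between these libraries, which may be technical.

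Hyaluronan is not assembled in the Golgi, as other glycosaminoglycans are, but by synthases in the plasma membrane that join UDP-glucuronic acid and UDP-N-acetylglucosamine and push the chain out of the cell. Outside, hyaladherins such as versican and the product of Tnfaip6 (TSG-6) bind and crosslink the chains, and CD44 holds them to the cell surface. Turnover starts with enzymes that cut the long chains, CEMIP and HYAL2 at or near the cell surface, and continues with HYAL1 and exoglycosidases in lysosomes. Fibroblasts are a main source of the polymer in most tissues.

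Total counts were between 10710410 and 14366199 in the monocultures and between 17277432 and 22087459 in the cocultures, so that 3 reads, scaled by these totals, stood for 0.136 to 0.2801 CPM. CPM of genes below are reads scaled to a common library size with TMM factors. Il13, the gene absent from the knockout ILC2s, had 30, 120 and 121 reads in WT cocultures 1, 3 and 4, numbered here as in the count table, and 0 in each of the other 7 libraries. Of 5 ILC2 markers tested, 4 were called higher and 1, Rora, lower with WT ILC2s. With IL13KO ILC2s 3 were higher and 0 lower. Il5 had 0 reads in the monocultures, 80 to 371 per WT and 12 to 64 per IL13KO coculture. Il2ra had at most 1, 15 to 45 and 4 to 74. All 7 fibroblast markers examined, among them Pdgfra, Pdpn and Col1a1, were read in every library, but their levels differed. In each coculture 4 of the 7 were called higher and 2 lower than in monoculture. The lower ones were Dcn and Lum, at -2.78 and -3.69 on the log2 scale with WT ILC2s. With IL13KO ILC2s they were at -0.62 and -1.44. The CD45 gene Ptprc was read 3 to 9 times per WT coculture, once in 1 IL13KO coculture and in no monoculture. The 8 leukocyte markers summed to 4.98 to 8.72 CPM in the monocultures, 96.0 to 120.3 in the WT and 16.4 to 23.9 in the IL13KO cocultures. Without Cd53 they summed to 1.605 to 5.69, 3.63 to 8.62 and 3.52 to 4.94 CPM. Mesothelial transcripts were uneven, and Upk3b had 498 reads in monoculture 3, 110 in WT coculture 3, 499 and 1291 in IL13KO cocultures 1 and 2, and at most 41 in the other libraries. The 8 mesothelial markers summed to 33.0, 25.0, 151.8 and 34.0 CPM in monocultures 1 to 4. Their sums were 131.1 to 154.2 CPM in the WT and 107.0 to 229.3 in the IL13KO cocultures. Of 6 tested, 2 were called higher and 0 lower in each coculture against monoculture. Wt1 was called in both (2.11 and 1.85 on the log2 scale). It stood at 30.7 CPM on average in monoculture, 132.6 with WT and 110.4 with IL13KO ILC2s, a large part of these sums.

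RefSeq promoter sequences on GRCm38.p6 were at hand for 7 of the 9 genes, 1 start site each, and were searched over the 250 bases before the start. Those of Tnfaip6, Cemip and Has1 are shown because these genes had the 3 largest differences between WT coculture and monoculture. Bases that the GENCODE annotation places inside the gene were left off the right-hand end. Capitals mark matches to 5 motifs searched on both strands: the STAT palindrome TTCNNNGAA, the STAT6 palindrome, which has 4 bases in place of 3 between TTC and GAA, the AP-1 motif TGANTCA, the NF-κB consensus and the TATA box TATAAA.
Tnfaip6, chr2:52037863-52038008, plus strand: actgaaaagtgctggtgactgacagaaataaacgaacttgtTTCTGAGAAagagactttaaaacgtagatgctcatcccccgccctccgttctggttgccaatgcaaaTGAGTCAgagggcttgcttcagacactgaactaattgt
Cemip, chr7:84086506-84086755, minus strand: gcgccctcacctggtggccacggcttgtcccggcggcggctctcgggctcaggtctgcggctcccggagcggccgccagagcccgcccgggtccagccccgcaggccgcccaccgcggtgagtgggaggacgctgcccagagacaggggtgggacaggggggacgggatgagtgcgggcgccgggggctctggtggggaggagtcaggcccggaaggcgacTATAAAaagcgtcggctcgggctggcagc
Has1, chr17:17855206-17855438, minus strand: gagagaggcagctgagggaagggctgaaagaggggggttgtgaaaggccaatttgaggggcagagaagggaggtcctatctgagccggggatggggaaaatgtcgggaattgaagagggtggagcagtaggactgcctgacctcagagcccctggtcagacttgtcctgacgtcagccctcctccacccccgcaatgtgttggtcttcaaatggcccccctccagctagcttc
The Tnfaip6 stretch held the STAT match TTCTGAGAA at positions -209 to -201 from the RefSeq start and the AP-1 match TGAGTCA at positions -142 to -136. The Cemip stretch held a TATA box at positions -29 to -24, and 26 CG dinucleotides in its 250 bases, against a median of 6 over all promoters of the table. Has1, with 4 CG dinucleotides, had no match to any of the 5 motifs, and neither had Vcan or Hyal1. Cd44 held TTCCTGGGAA, a match to the STAT6 palindrome, and Hyal2 held GGGAATCCCC, a match to the NF-κB consensus. The Hyal2 window, chr9:107568913-107569162, lay wholly inside the gene as GENCODE places it. Its match is therefore upstream of the RefSeq start only. No matches overlapped. Of the 32817 promoter windows of this length, 5.85% held the STAT6 palindrome, 7.01% the STAT palindrome, 6.75% the AP-1 motif, 3.90% the NF-κB consensus and 12.4% the TATA box. A match describes these letters and not the binding of a factor.

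The synthases were examined first. Has1 (ENSMUSG00000003665, GRCm38 chromosome 17, 17843323 to 17855205) stood at 14.2, 9.18, 10.3 and 7.17 CPM in monocultures 1 to 4. It stood at 73.0, 90.8 and 61.0 CPM in WT cocultures 1, 3 and 4 and at 51.8, 45.9 and 50.5 CPM in IL13KO cocultures 1 to 3. No 2 groups overlapped, with the monocultures lowest and the WT cocultures highest. The log2 fold change against monoculture was 2.88 ± 0.20 (SE; edgeR adjusted p = 1.21e-07) with WT ILC2s and 2.28 ± 0.20 (adjusted p = 1.87e-06) with IL13KO ILC2s. The WT coculture lay above the IL13KO coculture by 0.60 ± 0.20 (edgeR adjusted p = 0.0410). That last call ended without WT coculture 1 (edgeR adjusted p = 0.0754) or 3 (0.178) or IL13KO coculture 1 (0.0924), 2 (0.146) or 3 (0.0944), and with upper-quartile scaling (0.0505). Mesothelial cells also transcribe Has1. Monoculture 3, the monoculture rich in the mesothelial transcript Upk3b, had 10.3 CPM of Has1. The 8 mesothelial markers summed to 107.0 CPM or more in every coculture and to 34.0 or less in monocultures 1, 2 and 4. Wt1 made up most of the sum in those monocultures and in the WT cocultures. With WT ILC2s, Upk3b and Upk1b differed from monoculture by -2.66 and -2.99 on the log2 scale. Krt18, Krt19 and Lrrn4 differed by 0.97, 2.84 and 7.04, and of these markers other than Wt1 only Krt19 was called. The part of mesothelial cells in the Has1 result was not tested. Leaving out the 4 libraries rich in Upk3b, a choice made after the data were seen, leaves 1 IL13KO library. The WT and IL13KO cocultures then differed by 0.43 ± 0.35 in Has1, which was not called.

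Has3 (ENSMUSG00000031910, chromosome 8, 106870242 to 106884566), whose enzyme is known for making shorter chains than the other synthases, stood at 4.98, 7.85, 12.6 and 8.23 CPM in the monocultures. It reached 35.2, 31.2 and 24.0 CPM in the WT and 31.0, 34.2 and 29.1 CPM in the IL13KO cocultures. Both cocultures lay wholly above the monocultures, and they overlapped with each other. The gene rose by 1.84 ± 0.24 on the log2 scale with WT ILC2s and by 1.90 ± 0.24 with IL13KO ILC2s (edgeR adjusted p = 2.15e-05 and 2.67e-05). The difference between the cocultures was -0.06 (95% interval -0.58 to 0.46, edgeR adjusted p = 0.885), which leaves room for a moderate difference either way. Of the exon bases of Has3, 5.52% are shared with Chtf8 on the opposite strand, and whether the counting used strand is not given in the sources used here.

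Has2 (ENSMUSG00000022367, chromosome 15, 56665627 to 56694539), the synthase required for development of the mouse heart, had few reads. It stood at 3.46, 2.59, 3.13 and 3.09 CPM in the monocultures, 2.92, 2.92 and 3.77 in the WT and 3.40, 3.58 and 5.33 in the IL13KO cocultures. All 3 groups overlapped. The log2 difference from monoculture was 0.06 ± 0.24 (95% interval -0.45 to 0.58, edgeR adjusted p = 0.839) with WT ILC2s. With IL13KO ILC2s it was 0.42 ± 0.24 (-0.09 to 0.93, adjusted p = 0.143), and it was called (0.84, adjusted p = 0.00908) once the trends of each library with GC and transcript length were removed. The antisense transcript Has2os shares 4.30% of the Has2 exon bases and had 1.998 to 3.44 CPM over the 10 libraries, and reads on the shared bases cannot be told apart without strand.

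Per kilobase of exon, the 3 synthases summed to 4.31 ± 0.671 CPM per kb with no ILC2s (SD, n = 4), 22.1 ± 3.77 with WT ILC2s (n = 3) and 16.8 ± 0.405 with IL13KO ILC2s (n = 3). Has1 made up 44.0% to 66.3% of that sum in the monocultures, 72.3% to 78.3% in the WT and 62.1% to 66.95% in the IL13KO cocultures. Has2 made up 14.8% to 20.2% in the monocultures and 2.68% to 4.90% and 4.69% to 7.40% in the cocultures. Has3 made up 16.5% to 39.6% in the monocultures, 19.0% to 24.7% in the WT and 26.9% to 32.8% in the IL13KO cocultures. The share of Has2 was lower in every coculture library than in every monoculture, while its own level overlapped between the groups. Monoculture 1 had the largest Has1 share and the smallest Has3 share of the 4 monocultures. The sizes of these shares depend on the annotated exon bases of Has1, Has2 and Has3 (4518, 4237 and 6380).

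**Figure D1:**
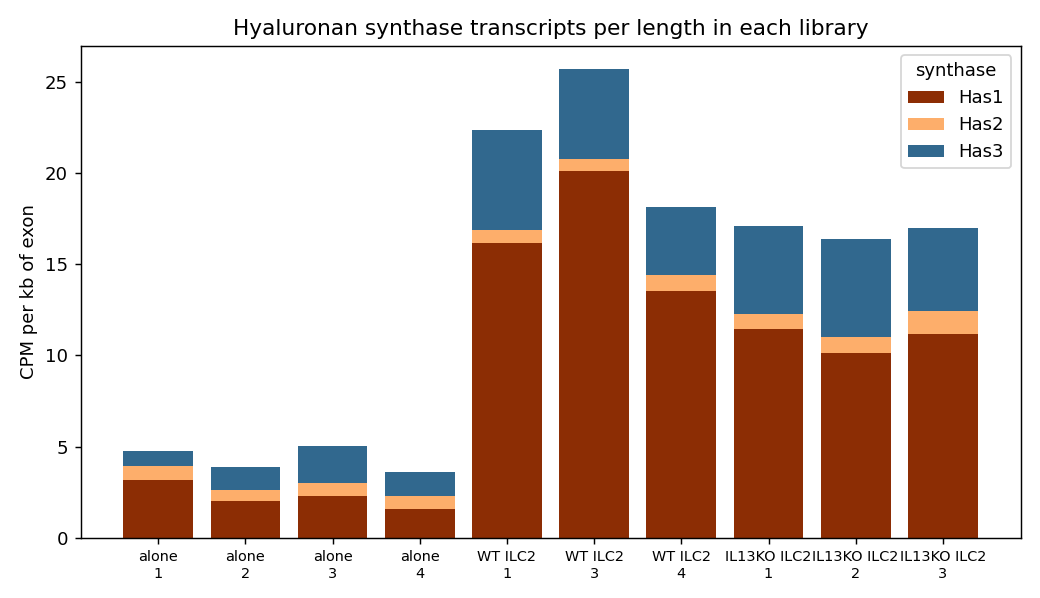
Stacked bars of Has1, Has2 and Has3 transcripts in CPM per kb of exon, 1 bar per library, with the library number under each bar. The 6 coculture bars reach 16.4 to 25.7, the 4 monoculture bars 3.61 to 5.00, and the Has2 segment stays thin throughout.

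Among the breakdown genes, Cemip (ENSMUSG00000052353, chromosome 7, 83932857 to 84086502) separated the cocultures. CEMIP is the protein on which hyaluronan breakdown by skin fibroblasts is known to depend. The gene had 180, 122, 132 and 151 reads in the monocultures (15.2, 9.04, 12.2 and 10.6 CPM) and 280, 211 and 231 reads in the IL13KO cocultures (15.9, 12.0 and 13.1 CPM). In the WT cocultures it had 6, 14 and 3 reads (0.269, 0.717 and 0.162 CPM). The WT cocultures were lowest by a wide gap, and the monocultures and IL13KO cocultures overlapped. Cemip fell by 4.91 ± 0.36 on the log2 scale against monoculture (30.2-fold, edgeR adjusted p = 2.40e-07) and by 5.13 ± 0.37 against the IL13KO coculture (35.1-fold, adjusted p = 1.68e-06). Between IL13KO coculture and monoculture the log2 difference was 0.22 ± 0.25 (95% interval -0.32 to 0.76, edgeR adjusted p = 0.473). Removing the GC and length trend turned that last difference to -0.89 (edgeR adjusted p = 0.0122) and moved the fall against monoculture to -5.88. Leaving out WT coculture 3 moved the 2 falls to -5.69 and -5.89. The macrophage markers examined summed to 58.4 to 65.6 CPM in the monocultures, 14.9 to 17.7 in the WT and 35.3 to 37.1 in the IL13KO cocultures. Lyz2 carried that sum (53.4, 2.85 and 23.8 CPM on average), while Csf1r stood at 8.999, 12.9 and 12.2 CPM and Adgre1, Cd68 and Mrc1 were below 1 CPM in every library. Of the mural markers, Rgs5 stood at 51.4 CPM in monoculture, 8.54 with WT and 57.7 with IL13KO ILC2s, and Myh11 at 2.94, 0.883 and 3.91 CPM. Other mural markers differed in pattern. Pdgfrb differed from monoculture by 0.39 on the log2 scale with WT and 2.09 with IL13KO ILC2s, and Notch3 by 0.23 and 1.57. Acta2 differed by -0.59 and -0.40, and Mcam by -1.66 and -0.83. The 7 mural markers, led by Acta2, summed to 1164 to 1391, 741 to 969 and 1017 to 1308 CPM. Of the 7 fibroblast markers, Dcn and Lum were called lower in the WT than in the IL13KO coculture (-2.16 and -2.26). Thy1 was called higher (0.54). The part of the macrophage, mural and fibroblast markers in the Cemip result was not tested.

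Hyal2 (ENSMUSG00000010047, chromosome 9, 107567945 to 107572779), which encodes a membrane-anchored hyaluronidase, stood at 20.5, 28.7, 32.4 and 31.2 CPM in the monocultures. It stood at 48.5, 48.1 and 41.5 CPM in the WT and 51.8, 49.2 and 48.4 CPM in the IL13KO cocultures, all above the monocultures. It rose by 0.71 ± 0.14 and 0.82 ± 0.14 on the log2 scale (edgeR adjusted p = 0.000801 and 0.000337), and the cocultures differed by -0.11 (95% interval -0.44 to 0.21, adjusted p = 0.639). Once the trends with GC and length were taken out both rises lost their calls, at 0.09 (edgeR adjusted p = 0.465) and 0.12 (adjusted p = 0.351). The GC content of its longest transcript was 55.2%, above that of 79.5% of the genes tested, and fold changes against monoculture correlated with GC content across genes (rho = 0.339 for the WT and 0.404 for the IL13KO coculture), which are not independent replicates.

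Hyal1 (ENSMUSG00000010051, chromosome 9, 107576927 to 107581710), the gene of the lysosomal hyaluronidase, was the least abundant member per length in monoculture. It had 4 to 28 reads in the monocultures, 34 to 38 in the WT and 19 to 28 in the IL13KO cocultures. Its log2 difference from monoculture was 0.45 ± 0.41 with WT ILC2s (95% interval -0.43 to 1.33, edgeR adjusted p = 0.356) and 0.06 ± 0.42 with IL13KO ILC2s (-0.85 to 0.97, adjusted p = 0.919). The former interval includes a doubling and the latter does not, and neither excludes 0. Hyal1 shares 51.9% of its exon bases with its neighbours Hyal3 and Naa80 on the same strand, and its counts are uncertain for that reason too.

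Of the binding genes, Tnfaip6 (ENSMUSG00000053475, chromosome 2, 52038009 to 52056686) had the largest rise with WT ILC2s. TSG-6, its product, moves heavy chains from the serum protein inter-α-inhibitor onto hyaluronan and is induced by inflammatory cytokines. The gene stood at 13.9, 16.7, 15.9 and 19.5 CPM in the monocultures, 25.6, 25.2 and 26.9 in the IL13KO cocultures and 72.5, 81.3 and 79.8 in the WT cocultures. The 3 groups lay in that order without overlap. Tnfaip6 rose by 2.24 ± 0.12 on the log2 scale with WT ILC2s (4.71-fold, edgeR adjusted p = 1.97e-08) and by 0.65 ± 0.12 with IL13KO ILC2s (1.57-fold, adjusted p = 0.000581). The WT coculture was 3.004-fold above the IL13KO coculture (1.59 ± 0.13, edgeR adjusted p = 3.28e-06). With the libraries rich in Upk3b left out, which leaves 1 IL13KO library, the smaller rise was 0.67 and was not called. Of the leukocyte markers, Cd53 was ordered in the same way across the groups, and Itgb2 was lowest with WT ILC2s (-1.03 against monoculture on the log2 scale). The leukocyte sums without Cd53 overlapped between the groups. The part of these markers in the result was not tested.

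Vcan (ENSMUSG00000021614, chromosome 13, 89655312 to 89742509) encodes versican, a large proteoglycan whose globular head binds hyaluronan. It stood at 49.8, 37.6, 50.4 and 45.5 CPM in the monocultures, 111.6, 128.5 and 128.7 in the IL13KO and 181.6, 161.7 and 199.5 in the WT cocultures. No groups overlapped, in the same order as for Tnfaip6. Vcan rose by 1.98 ± 0.12 with WT ILC2s (3.95-fold, edgeR adjusted p = 4.19e-08) and by 1.42 ± 0.12 with IL13KO ILC2s (2.68-fold, adjusted p = 1.45e-06). The cocultures differed by 0.56 ± 0.12 (1.47-fold, edgeR adjusted p = 0.00602). That call ended with the libraries rich in Upk3b left out, which leaves 1 IL13KO library. The difference was then 0.58.

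Cd44 (ENSMUSG00000005087, chromosome 2, 102811141 to 102901665), the gene of the main hyaluronan receptor on the cell surface, had the smallest called change with WT ILC2s among the members. It stood at 235.9, 222.3, 198.8 and 193.0 CPM in the monocultures, 276.6, 236.2 and 271.6 in the WT and 252.2, 225.1 and 253.8 in the IL13KO cocultures. The lowest WT coculture lay just above the highest monoculture, and the IL13KO cocultures overlapped with both groups. Cd44 rose by 0.30 ± 0.10 on the log2 scale with WT ILC2s (edgeR adjusted p = 0.0175) and differed by 0.20 ± 0.10 with IL13KO ILC2s (95% interval -0.02 to 0.41, adjusted p = 0.102). The call with WT ILC2s ended without monoculture 4 (edgeR adjusted p = 0.0590), WT coculture 1 (0.0584) or 4 (0.0515), without the libraries rich in Upk3b (0.0519), and with upper-quartile scaling (0.138). Its log2 fold change was then 0.25, 0.27, 0.28, 0.34 and 0.18. That with IL13KO ILC2s was made without monoculture 1 (adjusted p = 0.0380). Leukocytes also transcribe Cd44, and in bulk RNA a change in the share of a cell type and a change in RNA per cell cannot be told apart. Ptprc had at most 9 reads in a library, while the 8 leukocyte markers, led by Cd53, summed to 96.0 to 120.3 CPM in the WT cocultures. The ILC2 marker Il5 was read in every coculture of both kinds and in no monoculture. The part of leukocytes, ILC2s among them, in the Cd44 result was not tested.

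**Figure D2:**
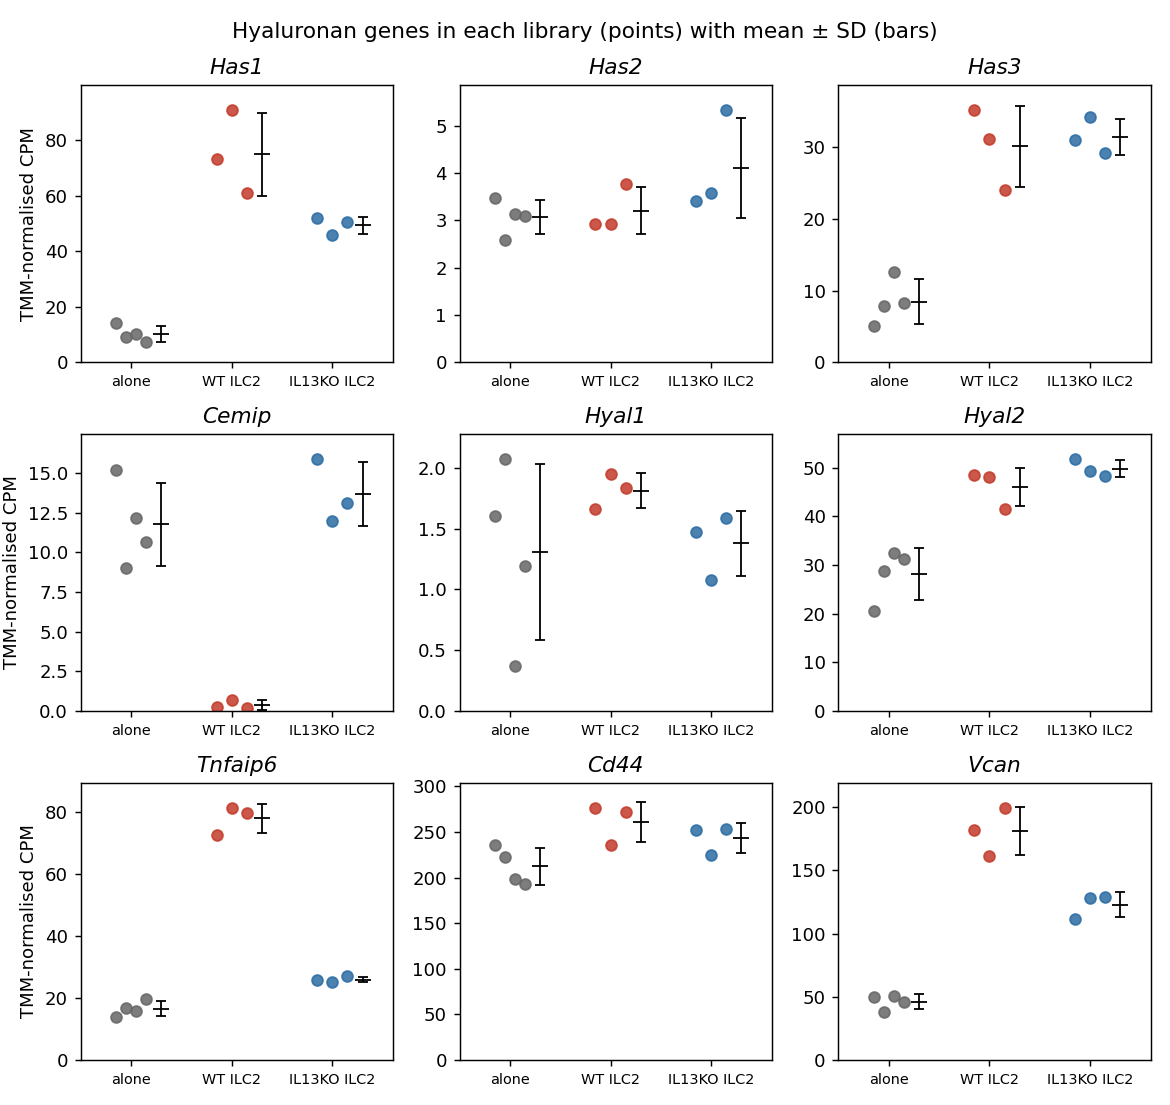
Each panel plots 1 gene in TMM-normalised CPM on a linear axis from 0, with 1 point per library (4 alone, 3 with WT ILC2s, 3 with IL13KO ILC2s) and a bar for the mean ± SD. Has1, Has3, Hyal2, Tnfaip6 and Vcan lie higher in both cocultures, and Cemip is near 0 in the WT cocultures only.

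Over the 9 genes, 6 rose and 1 fell with WT ILC2s, a median log2 fold change of 0.71 against 0.015 over all genes tested. Of all genes tested, 62.5% were called in that comparison, 32.8% higher and 29.7% lower, so being called is common there. Without overlap between the groups, 6 members were higher and 1 lower, as were 32.2% and 28.7% of all genes. Against a fold change of 1.5, which 36.0% of all genes passed (22.0% higher, 14.0% lower), 4 of the 9 were higher (Has1, Has3, Tnfaip6 and Vcan) and Cemip lower. With IL13KO ILC2s, 5 of the 9 rose (Has1, Has3, Hyal2, Tnfaip6 and Vcan) and 0 fell, with a median of 0.65 against 0.0017, while 57.4% of all genes were called, 30.1% higher and 27.3% lower. Without overlap, 5 members were higher and 0 lower, as were 30.9% and 28.3% of all genes. Against a fold change of 1.5, 3 of the 9 (Has1, Has3 and Vcan) passed there, and 25.9% of all genes did (18.9% higher, 6.99% lower). Between WT and IL13KO coculture, 3 of the 9 were higher (Has1, Tnfaip6 and Vcan) and Cemip was lower, while 23.3% of all genes were called, 11.6% higher and 11.7% lower. Without overlap, 4 members were higher, Hyal1 being the fourth, and 1 lower, as were 24.2% and 24.8% of all genes. Tnfaip6 and Cemip passed the test against a fold change of 1.5 there, which 6.79% of all genes did (3.29% higher, 3.49% lower). The members were not drawn at random, and nothing particular to them is read from these shares. The comparisons against monoculture share the same 4 libraries.

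**Figure D3:**
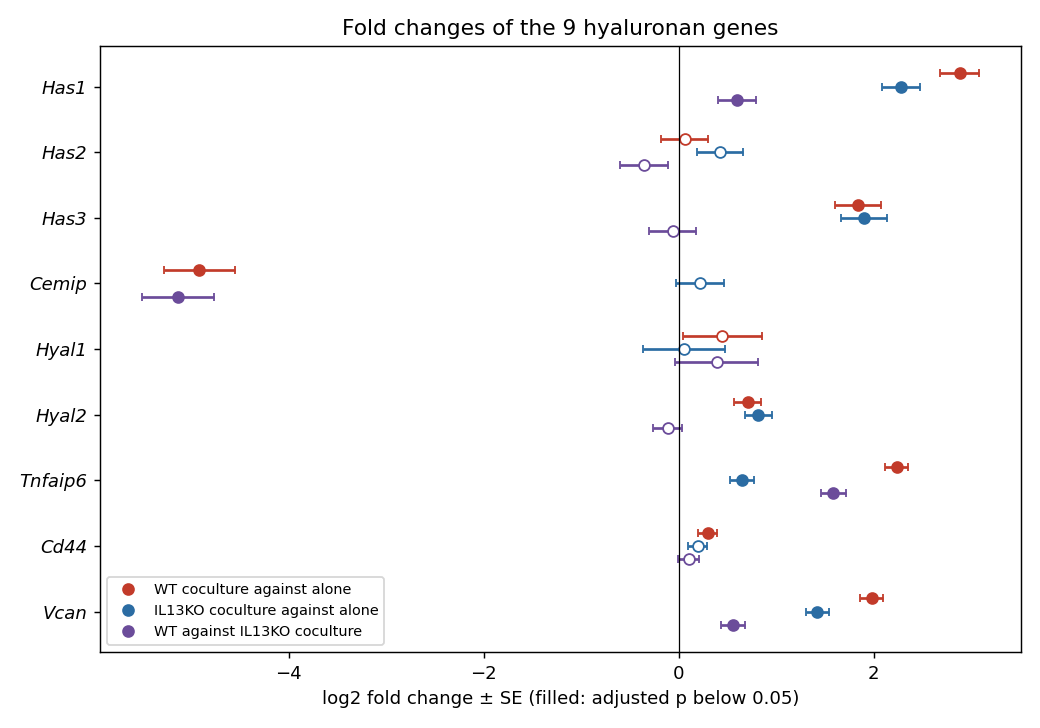
Log2 fold changes ± SE of the 9 genes (rows) in the 3 comparisons, with filled points for an adjusted p below 0.05. Cemip lies at -4.91 and -5.13 in the 2 comparisons that involve the WT coculture against another group and at 0.22 between IL13KO coculture and monoculture, and the Tnfaip6 points spread from 0.65 to 2.24.

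The order of the members per kilobase depends on their annotated exon bases, from 1710 in Tnfaip6 to 14462 in Vcan. The lengths of the transcripts expressed here were not measured. Per kilobase of exon, Cd44 was the most abundant member in monoculture (31.4 ± 2.97 CPM per kb), followed by Tnfaip6 (9.65 ± 1.36) and Hyal2 (8.57 ± 1.62), which overlapped, and then by Vcan (3.17 ± 0.408). Has1 (2.26 ± 0.653), Has3 (1.32 ± 0.495), Cemip (0.961 ± 0.215), Has2 (0.725 ± 0.0848) and Hyal1 (0.347 ± 0.191) followed, and from Vcan on each overlapped with the next except Has2 with Hyal1. In the WT coculture Tnfaip6 (45.5 ± 2.75) led, above Cd44 (38.6 ± 3.25), and Has1 (16.6 ± 3.32), Hyal2 (13.98 ± 1.20) and Vcan (12.5 ± 1.31) lay close together, each overlapping with the next. Has3 followed at 4.72 ± 0.890, then Has2 (0.756 ± 0.116) and Hyal1 (0.480 ± 0.0382), and Cemip was last at 0.0313 ± 0.0241. In the IL13KO coculture the order was Cd44 (35.96 ± 2.38), Tnfaip6 (15.2 ± 0.532) and Hyal2 (15.1 ± 0.539), which overlapped, Has1 (10.9 ± 0.686), Vcan (8.501 ± 0.679), Has3 (4.93 ± 0.403), Cemip (1.12 ± 0.164), Has2 (0.969 ± 0.251) and Hyal1 (0.366 ± 0.0706), with Cemip and Has2 overlapping.

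The wider pathway was read from a list of 52 other genes in 7 classes, of which 41 were in the count table and 35 were tested. With WT ILC2s 19 of the 35 were higher and 6 lower, beside 32.8% and 29.7% of all genes. With IL13KO ILC2s 17 were higher and 3 lower, beside 30.1% and 27.3% of all genes. Between the cocultures 8 were higher and 8 lower with WT ILC2s, beside 11.6% and 11.7% of all genes. The median log2 fold changes were 0.50, 0.49 and 0.047, against 0.015, 0.0017 and -0.0042 over all genes. These counts include genes that passed the filter through the group where they were high. Of the calls between the cocultures named below, only those of Ptx3 and Adamts5 were still made with the libraries rich in Upk3b left out, which leaves 1 IL13KO library. The lost calls kept their direction, with log2 fold changes of 1.25 for Hapln4 (1.27 with all libraries), -0.99 for Habp4 (-1.02), -0.58 for Tlr2 (-0.59) and 0.51 for Pgm3 (0.63). Against monoculture, that choice ended the calls with IL13KO ILC2s of Gfpt2 (0.35, edgeR adjusted p = 0.1098), Ugdh (0.27, 0.191), Hmmr (1.04, 0.0541), Stab1 (1.496, 0.0630), Ank3 (1.31, 0.0878) and Rdx (-0.34, 0.116).

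Precursor genes supply the 2 sugar nucleotides that the synthases use. Of 8 tested, 6 were higher and 0 lower with WT ILC2s (median 0.43, and 0.015 over all genes, of which 62.5% were called), and 3 were higher and 1 lower with IL13KO ILC2s (median 0.22, and 0.0017 over all genes, of which 57.4% were called). Gfpt1 and Gfpt2, which encode the first enzyme of the hexosamine pathway, went from 51.5 ± 3.82 and 648.8 ± 93.9 CPM in monoculture to 102.2 ± 19.3 and 1077 ± 100.4 in the WT coculture, and to 109.2 ± 7.35 and 993 ± 101 in the IL13KO coculture. Pgm3, a later enzyme of that pathway, rose with WT ILC2s (0.72 ± 0.11, edgeR adjusted p = 6.77e-05), differed from monoculture by 0.09 ± 0.11 with IL13KO ILC2s (adjusted p = 0.485), and the cocultures differed by 0.63 ± 0.11 (adjusted p = 0.00158). Gnpnat1, which acts just before Pgm3, was higher in the WT than in the IL13KO coculture by 0.53 ± 0.11 (edgeR adjusted p = 0.00301). Against monoculture it rose by 0.26 ± 0.10 with WT and fell by 0.27 ± 0.10 with IL13KO ILC2s (edgeR adjusted p = 0.0342 and 0.0327). Ugdh, which makes UDP-glucuronic acid, rose by 0.50 ± 0.09 with WT and 0.32 ± 0.09 with IL13KO ILC2s (edgeR adjusted p = 0.000444 and 0.0106), the latter not called with upper-quartile scaling (0.21, adjusted p = 0.0783). The rise of Gfpt2 with IL13KO ILC2s was not called once the trends with GC and length were taken out (0.20, adjusted p = 0.242).

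Of 5 other breakdown genes tested, 1 was higher and 3 lower with WT ILC2s, and 1 was higher and 1 lower with IL13KO ILC2s. Over all genes, 32.8% were higher and 29.7% lower with WT, and 30.1% and 27.3% with IL13KO ILC2s. Cemip2, the membrane protein related to CEMIP, went from 16.9 ± 2.05 CPM to 40.8 ± 8.80 with WT and 27.7 ± 0.488 with IL13KO ILC2s. It rose by 1.28 ± 0.15 and 0.72 ± 0.15, in the comparison where Cemip fell and in the one where Cemip was not called. The rise with IL13KO ILC2s was not called with the GC and length trend removed (0.066, edgeR adjusted p = 0.706). Hexa, which encodes a lysosomal exoglycosidase subunit, fell by 0.76 ± 0.17 with WT ILC2s (edgeR adjusted p = 0.00192). With IL13KO ILC2s Hexa was at 306 ± 19.3 CPM, against 288 ± 73.2 in monoculture (0.08 ± 0.17, adjusted p = 0.691).

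Of 7 other receptors and binding proteins tested, 4 were higher and 1 lower with WT ILC2s, and 3 higher and 0 lower with IL13KO ILC2s. The shares over all genes were 32.8% higher and 29.7% lower with WT, and 30.1% and 27.3% with IL13KO ILC2s. Hmmr, a hyaluronan-binding protein that also acts at the mitotic spindle, went from 8.11 ± 3.35 CPM to 52.2 ± 5.32 with WT and 15.8 ± 2.91 with IL13KO ILC2s. Habp4, an intracellular binding protein, went from 8.46 ± 2.03 CPM to 25.2 ± 8.84 with WT and 51.0 ± 11.8 with IL13KO ILC2s, the reverse order of the cocultures. Stab1, a scavenger receptor, rose by 1.74 ± 0.31 with WT and 1.11 ± 0.32 with IL13KO ILC2s (edgeR adjusted p = 0.000302 and 0.00906), and the latter turned to -0.71 (adjusted p = 0.0699) with the GC and length trend removed. Tlr2, a pattern receptor linked to hyaluronan fragments, fell by 0.97 ± 0.16 with WT ILC2s (edgeR adjusted p = 0.000165) and stood at 15.2 ± 2.24 CPM in monoculture and 11.6 with IL13KO ILC2s (adjusted p = 0.0512). Between the cocultures, the call of Habp4 (-1.02, adjusted p = 0.0139) ended without WT coculture 3 (0.0561) or IL13KO coculture 2 (0.0565) or 3 (0.0636), and that of Tlr2 (-0.59, 0.0222) without WT coculture 3 (0.0924) or 4 (0.0561) or IL13KO coculture 1 (0.0924) or 3 (0.0681).

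The class of heavy-chain transfer and matrix assembly had 4 genes tested. Of these, 2 were higher and 1 lower with WT ILC2s, beside 32.8% and 29.7% of all genes. With IL13KO ILC2s 2 were higher and 0 lower, beside 30.1% and 27.3%. Ptx3, a pentraxin that joins TSG-6 and the heavy chains in hyaluronan-rich matrix, stood at 315, 337, 228 and 346 CPM in the monocultures. It stood at 609, 322 and 653 CPM in the WT and 1407, 1727 and 1899 CPM in the IL13KO cocultures. The IL13KO cocultures were highest, and WT coculture 3 lay inside the monoculture range. Ptx3 rose by 0.78 ± 0.21 with WT and 2.45 ± 0.22 with IL13KO ILC2s (edgeR adjusted p = 0.00597 and 2.37e-06), and was lower in the WT coculture by 1.67 ± 0.23 (adjusted p = 0.000267), the opposite order to Tnfaip6. Thbs1, which encodes the matrix protein thrombospondin-1, rose by 1.28 ± 0.14 and 1.16 ± 0.14. Itih5, a heavy-chain gene, fell by 1.63 ± 0.37 with WT ILC2s (edgeR adjusted p = 0.00191) and differed from monoculture by -0.37 ± 0.34 with IL13KO ILC2s (adjusted p = 0.368).

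Link proteins lock lecticans such as versican onto hyaluronan. Of 7 lectican and link protein genes, only Bcan and Hapln4 were tested, and they passed the filter on low counts through the cocultures, so that their being higher there was largely set by the filter. Hapln4, a link protein gene known from brain, had 0, 2, 0 and 0 reads in the monocultures, 204, 163 and 121 in the WT and 62, 55 and 59 in the IL13KO cocultures. Its ratio to monoculture was 204 with WT ILC2s (exact 95% counting interval 56.1 to 1688) and 83.9 with IL13KO ILC2s (22.9 to 698). The monoculture side of both rests on the 2 reads of monoculture 2, without which the fitted log2 fold changes went from 7.41 to 10.06 and from 6.14 to 8.80. The cocultures differed by 1.27 ± 0.29 on the log2 scale (edgeR adjusted p = 0.00661). Bcan, the brevican gene, had 0 reads in the monocultures and was at least 17.0-fold higher with WT and at least 10.5-fold higher with IL13KO ILC2s, against 3 counts over the monocultures. These intervals and floors cover counting error only.

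The ADAMTS proteases listed can cut versican. Of 5 tested, 2 were higher and 1 lower with WT ILC2s, beside 32.8% and 29.7% of all genes. With IL13KO ILC2s 4 were higher and 0 lower, beside 30.1% and 27.3% of all genes. Adamts1 rose by 2.05 ± 0.17 with WT and 2.50 ± 0.17 with IL13KO ILC2s, and Adamts4 by 2.29 ± 0.23 and 2.96 ± 0.23. The cocultures differed by -0.455 ± 0.17 in Adamts1 and -0.67 ± 0.23 in Adamts4 (edgeR adjusted p = 0.0730 and 0.0541). Removing the GC and length trend left the Adamts4 rises at 1.31 and 1.85. Adamts5 fell with WT ILC2s (-0.62 ± 0.11, edgeR adjusted p = 0.000395), rose with IL13KO ILC2s (0.63 ± 0.11, adjusted p = 0.000379) and differed between the cocultures by -1.25 ± 0.12 (adjusted p = 1.47e-05). Adamts15 stood at 59.6 ± 11.3 CPM without ILC2s, 48.4 ± 19.1 with WT and 145.6 ± 17.6 with IL13KO ILC2s, and its rise with IL13KO ILC2s (1.29 ± 0.21) turned to -0.22 (edgeR adjusted p = 0.281) with the GC and length trend removed.

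Of the 4 genes that tie CD44 to the cell skeleton, 2 were higher and 0 lower with WT ILC2s, and 2 higher and 1 lower with IL13KO ILC2s. Among all genes 32.8% were higher and 29.7% lower with WT, and 30.1% and 27.3% with IL13KO ILC2s. Msn, the moesin gene, went from 222 ± 48.2 CPM to 658 ± 61.8 with WT and 558 ± 32.8 with IL13KO ILC2s. Ezr, the ezrin gene, rose by 1.94 ± 0.33 with WT ILC2s (edgeR adjusted p = 0.000223), and it stood at 3.07 ± 0.853 CPM in monoculture and 4.28 ± 2.56 with IL13KO ILC2s (adjusted p = 0.241). Ank3, an ankyrin gene, rose by 0.99 ± 0.31 and Rdx, the radixin gene, fell by 0.25 ± 0.09 with IL13KO ILC2s (edgeR adjusted p = 0.0147 and 0.0287). Neither was called once the trends with GC and length were taken out (0.23, adjusted p = 0.534, and -0.055, adjusted p = 0.583). The call of Rdx also ended with no filter (0.0558) and without monoculture 4 (0.0738) or IL13KO coculture 2 (0.115) or 3 (0.0929), and that of Ank3 without IL13KO coculture 3 (0.0593). With WT ILC2s Ank3 differed by 0.72 ± 0.31 and Rdx by -0.20 ± 0.09 (edgeR adjusted p = 0.0591 and 0.0624).

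**Figure D4:**
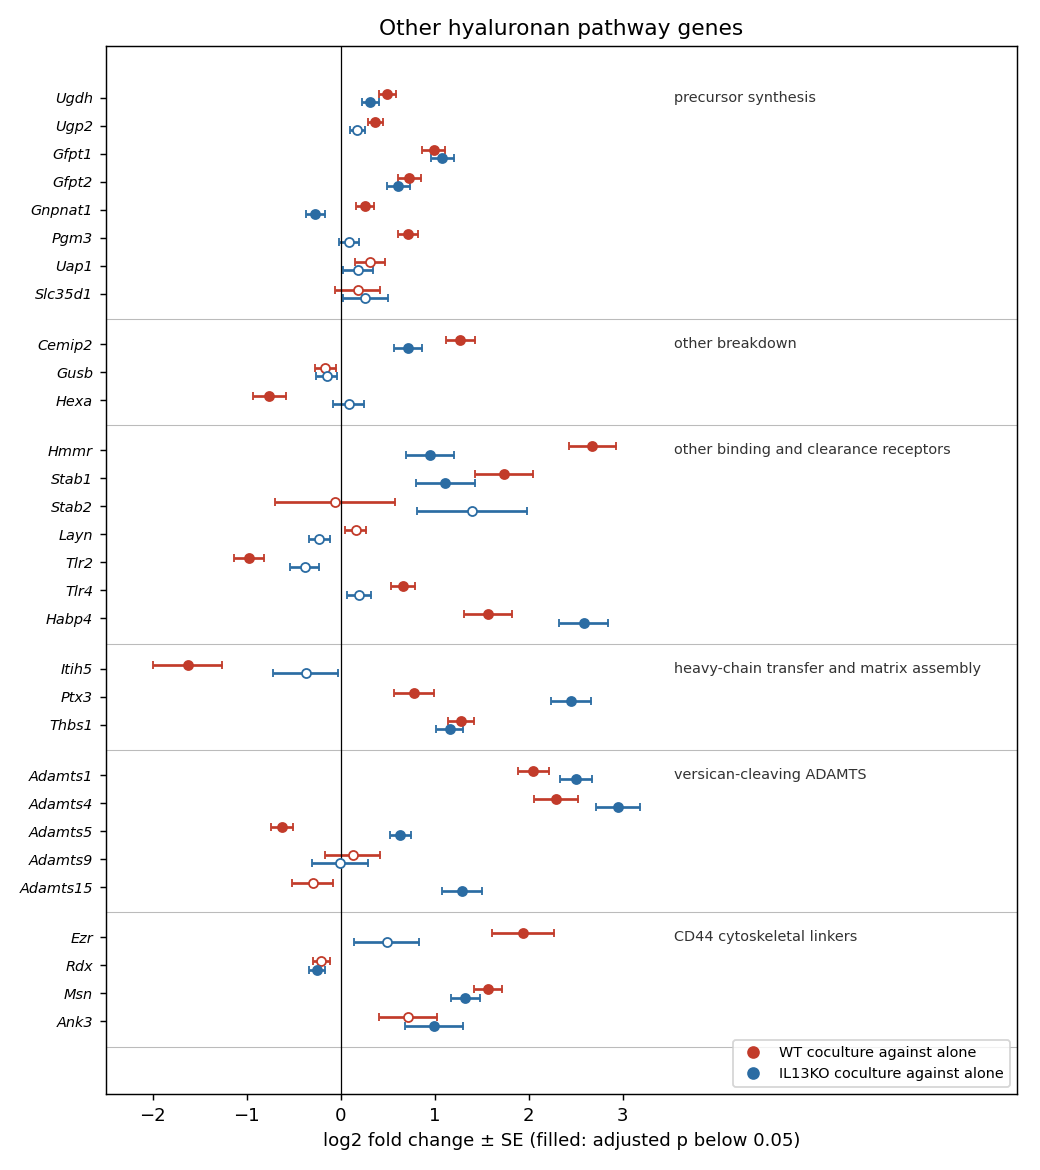
Log2 fold changes ± SE against monoculture for tested pathway genes whose mean reached 1 CPM in any group, by class, red for WT and blue for IL13KO coculture, filled where the adjusted p was below 0.05. Bcan and Hapln4, with 0 and 2 reads in the monocultures, are among the genes left out; Ptx3, Adamts5 and Adamts15 lie further right in blue than in red, and Hmmr and Ezr further right in red.

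Genes similar in pattern to each member were taken from the 3 with the highest Pearson r of log2 CPM over the 10 libraries, among the 9066 genes whose mean reached 10 CPM in any group. For Has1 these included Hk1 and Adgra2 (r = 0.987 and 0.987). Has3 was followed by S1pr2, C1qtnf6 and Atxn2l (0.998, 0.996 and 0.995). For Cemip these were Wfdc17, Nr1h3 and Arxes2 (0.993, 0.983 and 0.982), of which Wfdc17 stood at 93.5, 6.17 and 119.9 CPM in monoculture, WT and IL13KO coculture. For Tnfaip6 they included Arrdc4 and Tars (0.993 and 0.993), and Vcan was followed by Col6a1, Cdc42ep2 and Lmna (0.993, 0.991 and 0.991) and Hyal2 by Gmppa, Ptpa and Ifnar1 (0.995, 0.994 and 0.994). For the members with smaller differences r was lower, with Irak3 next to Cd44 (0.910), Trabd2b next to Has2 (0.855) and Cldn12 next to Hyal1 (0.944). Libraries of a group share their culture condition, and the monocultures share a lower depth, so these values describe likeness over 3 conditions rather than 10 independent points.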

How the data were processed

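RNA sequencing of mouse fibroblasts covered 10 libraries in 3 groups. Per the labels' protocols, 5 to 15 ng of RNA entered a low-input kit and paired reads of 50 nt were made. The submitters' processing notes name the build GRCm38.p6, the aligner STAR 2.7.7a, the quantifier Salmon 1.6.0, the trimmer Trimmomatic 0.39, the quality tools FastQC 0.11.9 and Picard, and DESeq2. Whether Salmon or another tool made the deposited counts is not given in the sources used here. The annotation and strand setting of that step are not given there either. The deposited table gives whole-number counts for 22731 genes; a second deposited table on a normalised scale was not used.

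Symbols, positions, exon lengths and GC content came from GENCODE on GRCm38, which matched 22647 identifiers. Genes were filtered with filterByExpr, normalised by TMM and fitted in edgeR 4.0.16 (R 4.3.3) with the quasi-likelihood test, 1 coefficient per group, all 10 libraries in 1 fit. P-values were adjusted by Benjamini-Hochberg over the 16344 genes tested, and calls made below 0.05. The SE is the log2 fold change over the square root of its F statistic, and 95% intervals use the model's degrees of freedom. CPM are TMM-normalised, with a prior count of 2 on the log2 scale. Members and lists were chosen with earlier results of these data known. Of each pathway class and comparison, up to 3 called genes with the smallest adjusted p whose mean reached 1 CPM in any group are named; values in other comparisons are given for some of them, and some genes that the rule names are not reported here. Alternatives were DESeq2 1.42.0, limma-voom (limma 3.58.1), other size factors, no filter or 1 CPM in 3 libraries, fits of the compared groups only, a test against a 1.5-fold change, a replicate block, removal of GC and length trends per library (loess, span 0.4), and leaving out each library; leaving out the 4 libraries with over 100 reads of Upk3b was added after the data were seen. The fits were tested on simulated data.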

Additional observations from a re-analysis of the deposited data

Results flagged for a closer look

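Among the monocultures, 34 genes that are members or named pathway genes were checked for a library apart from the other 3, with the gap to the nearest library over the whole range set against Dixon's 95% critical value, which chance passes in about 1 in 20 groups. For Hapln4 the ratio was 1.0, since monoculture 2 had 2 reads and the others 0. For Pgm3 it was 0.901, with 44.4 CPM in monoculture 3 and 54.3, 55.4 and 54.8 CPM in monocultures 1, 2 and 4.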

How the results depend on the processing

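Of 567 values of the 9 genes under alternatives, 527 kept direction and call, 23 lost and 2 gained a call, and 15 changed sign; of 1070 values of named pathway genes, 995 kept both, 73 lost a call and 2 changed sign. For the rest, the cause was not tested. Sign changes of members were those of Has2 with WT ILC2s (upper-quartile scaling -0.060; leaving out each library -0.061 to 0.13, below 0 without monoculture 2 or WT coculture 4), of Hyal1 with WT ILC2s (GC and length -0.037), of Hyal1 with IL13KO ILC2s (upper-quartile -0.046, GC and length -0.48, leaving out each library -0.23 to 0.36, below 0 without monoculture 3 or IL13KO coculture 3, without the libraries rich in Upk3b -0.051), of Cemip with IL13KO ILC2s (GC and length -0.89), and of Has3 between the cocultures (leaving out each library -0.19 to 0.082, above 0 without WT coculture 4 or IL13KO coculture 2, without the libraries rich in Upk3b 0.043). Only the Cemip value was called. Stab1 (-0.71) and Adamts15 (-0.22) turned in the IL13KO comparison with GC and length. Upper-quartile scaling moved the median of all genes from 0.015 to -0.11 with WT and from 0.0017 to -0.10 with IL13KO ILC2s.

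The test against a fold change of 1.5 called 5884, 4234 and 1109 of all genes (WT against alone, IL13KO against alone, WT against IL13KO) in place of 10212, 9384 and 3810, and 3 and 2 of the 9 genes in the last 2 comparisons in place of 5 and 4. Fitting only the cocultures called 5806 genes. Without the libraries rich in Upk3b, which leaves 1 IL13KO library assumed to vary like the others, 5093 genes were called for IL13KO against alone, and 400 genes and 2 of the 9 between the cocultures. Leaving out each library gave 9070 to 10459, 7891 to 9727 and 2337 to 4814 genes, and 6 to 7, 5 to 6 and 3 to 4 of the 9.

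Deviations of same-numbered libraries correlated at -0.13 to 0.028 (8 pairs), and those of differently numbered libraries at -0.15 to 0.14 (25 pairs). No pairing was seen, but such correlations cannot exclude that column numbers mark a shared animal or culture. With a replicate block by these numbers, 2124 genes were called between the cocultures, Vcan lost its call there (0.48, edgeR adjusted p = 0.0743), Has3 was at 0.015, and Has2 with WT ILC2s was at -0.021. Depth was low for Hyal1 (4 to 38 reads a library) and for Cemip in the WT cocultures (3 to 14 reads).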
